A study of Mus musculus with 6 samples.

Results

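The genes of the Wnt pathway described here are 56 of the 25302 rows of a gene table from mouse biliary epithelial cells. They were matched by symbol, a choice made with earlier results of these data known. The 56 genes comprise 14 Wnt ligands, 10 Frizzled receptors, the co-receptors Lrp5 and Lrp6, 2 Ror receptors, 2 R-spondins, 3 Lgr receptors and 9 secreted antagonists. The others are the membrane ligases Rnf43 and Znrf3, the acyltransferase Porcn, 3 Dishevelled proteins, 4 cytoplasmic inhibitors (Axin1, Axin2, Nkd1, Nkd2) and 4 Tcf/Lef factors. RNA was sequenced from biliary epithelial cells, the lining cells of liver bile ducts, in 3 Control and 3 Sox9cKO samples. Both groups carried floxed alleles of Sox9, a transcription factor gene of the bile duct lineage (Sox9fl/fl). The Sox9cKO group, labelled Sox9fl/fl:AlbCre+/-, also carried the AlbCre transgene, which the Control group lacked. AlbCre expresses Cre recombinase from the albumin promoter, which is active in hepatoblasts and hepatocytes, so biliary cells recombine through their descent from hepatoblasts. Age and sex were not given in the sources used here, nor whether each sample came from 1 mouse, so p-values measure the spread between these samples, which may be partly technical.

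Wnt proteins are lipid-modified by Porcn, carried to the cell surface by Wls, and bind a Frizzled receptor together with Lrp5 or Lrp6. Through Dishevelled the bound receptor halts the Axin and Apc complex that degrades beta-catenin, which then acts with Tcf/Lef factors on target genes. Rnf43 and Znrf3 remove Frizzled proteins from the membrane, and R-spondins bound to Lgr4, Lgr5 or Lgr6 remove these ligases in turn. In the liver, endothelial Wnt2, Wnt9b and Rspo3 maintain the pericentral hepatocyte programme.

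Reads assigned to genes numbered 11883496 to 16191990 per sample. Values are normalized reads: each library's reads were scaled by its size factor. Sox9 itself read 6211, 6043 and 6293 in Control and 3363, 3165 and 3340 in Sox9cKO, which left 53.2% of the Control level. The libraries carried the biliary markers Krt19 (11480 to 26648 over the 6 samples) and Epcam (5501 to 8249). Of 20 biliary markers tested with limma, 3 were called, Krt7 higher and Sox9 and Ggt1 lower, and 7 had an unadjusted p under 0.05. Adding the replicate block raised the count to 6, 1 higher and 5 lower. Sox9, the targeted gene, is counted among the lower markers in both fits, where its fall was given by the design. Of all genes tested, limma called 2.97%, and 8.05% with the replicate block. The share of all genes with an unadjusted p under 0.05 is not given here. The libraries also held transcripts of other liver cells. Summed over 14 endothelial markers the range was 2091 to 46074 in Control and 7575 to 47520 in Sox9cKO, with both replicate 3 libraries lowest. None of the 14 was called with limma or edgeR, and 1 had an unadjusted p under 0.05. When the replicate number entered as a block 2 were called, both higher. The median log2 fold change of the 14 was 1.09, higher in Sox9cKO, against 0.036 over all genes tested. The 16 hepatocyte markers summed to 25402 to 39277 in Control and 49926 to 81456 in Sox9cKO, and 5 of the 15 tested were called, all higher (Fgb, Serpina1a and Apob with the smallest p-values). In bulk RNA, fewer cells of a type and less RNA per cell cannot be told apart.

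The Sox9cKO libraries held more transcript of the ligands Wnt7b, Wnt7a and Wnt10a and of the R-spondin receptor Lgr6, and less of the receptor Fzd9, than the Control libraries. The test, limma, covered genes averaging at least 10 normalized reads per sample, among them 41 members. Of these, 5 were called (Benjamini-Hochberg adjusted p under 0.05 over all 17153 genes tested), 4 higher and 1 lower in Sox9cKO. Over all genes tested 2.97% were called, 2.03% higher and 0.939% lower. edgeR on the recovered reads called the same 5 members, where its share over all genes was 2.86%. The median log2 fold change was 0.20 over the tested members and 0.036 over all genes. Of the 41, 3 reached the minimum through 1 group only: Lgr6 through Sox9cKO, and Fzd9 and Fzd2 through Control. In 11 members the groups did not overlap, 9 of them higher in Sox9cKO, against 24.2% of all tested genes in either direction and 13.4% higher. The other 36 tested members were not called, and 15 members had too few reads to be tested. The plot of fold changes by role shows the called members among the ligands and receptors. None of the 13 tested ligase and intracellular members was called, which is near the 2.97% of all genes.

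**Figure D1:**
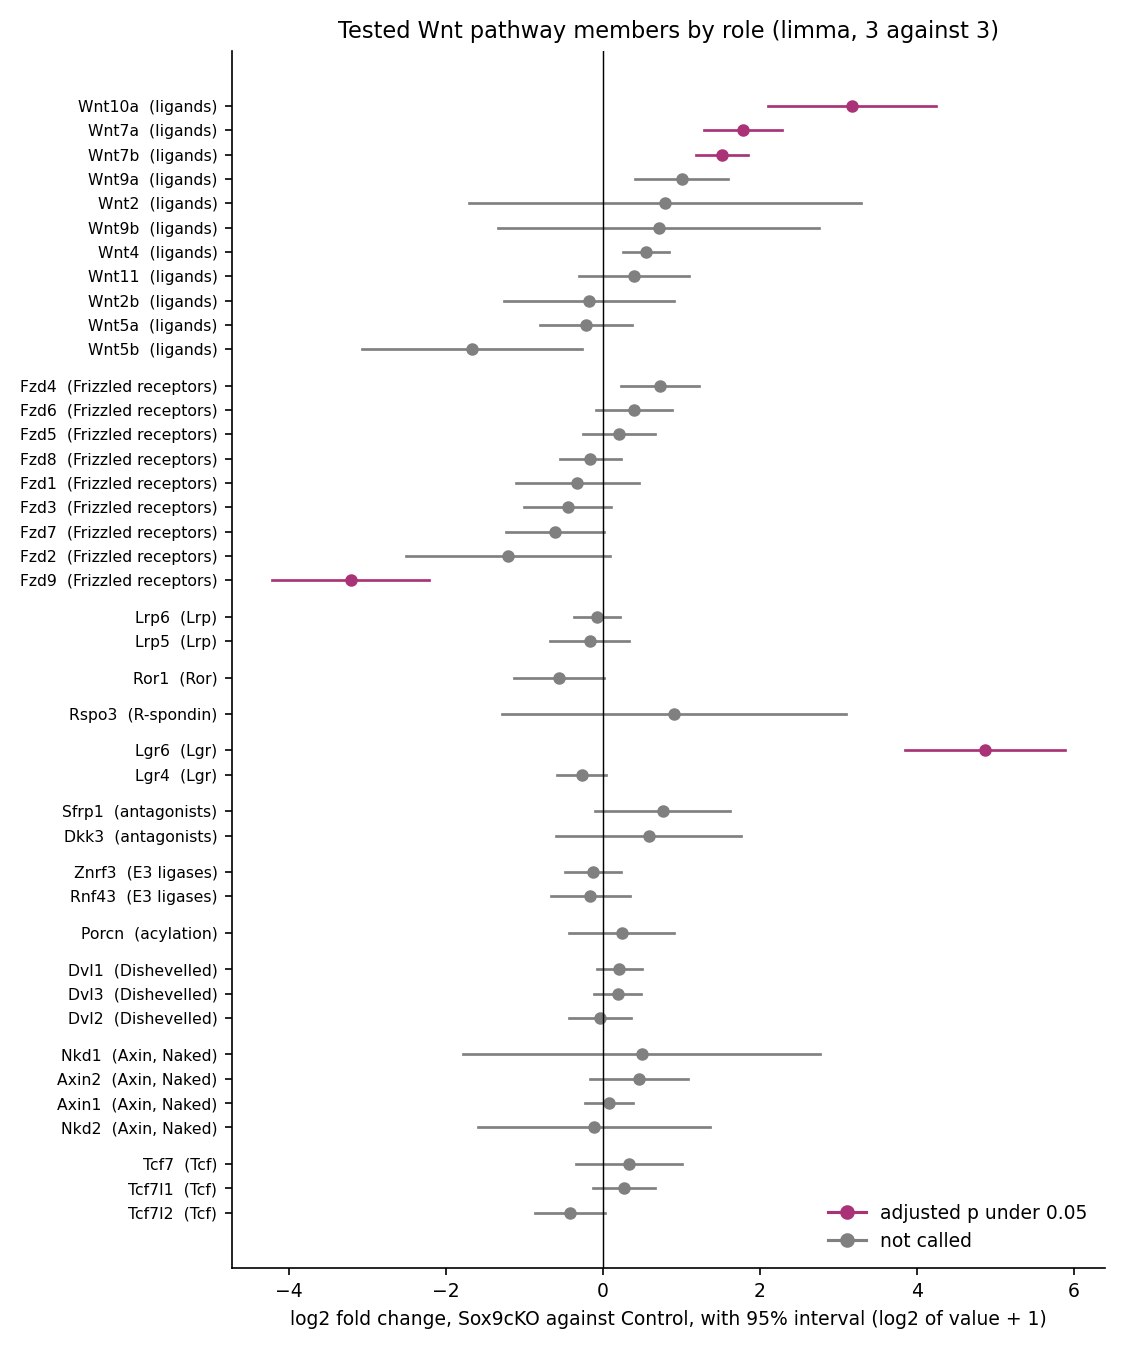
Log2 fold change of the 41 tested members, Sox9cKO against Control, with the 95% interval from limma (x axis, log2 of value + 1), ordered by role; colored points had an adjusted p under 0.05. Lgr6 (4.87) and Fzd9 (-3.22) lie farthest from 0 on either side, and the intervals of Wnt2, Wnt9b, Rspo3 and Nkd1 span both directions.

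Among the ligands, 3 of the 11 tested were called and all 3 were higher in Sox9cKO. Wnt7b (ENSMUSG00000022382), an epithelial ligand best known from lung and kidney collecting duct, read 467, 483 and 601 in the Control samples and 1620, 1436 and 1371 in the Sox9cKO samples. Every Sox9cKO library lay above every Control library, and the mean rose 2.85-fold, from 517 ± 73.7 to 1475 ± 129 (SD, n = 3). On the log2 scale the difference was 1.52 (SE 0.14; limma, adjusted p 0.00375). The non-coding gene AU022754 shares exonic bases with Wnt7b on the opposite strand. It read 37.8, 35.3 and 71.4 in Control and 65.7, 78.4 and 97.4 in Sox9cKO, far fewer than Wnt7b in each library. Whether counting used the strand is not given in the sources used here. Exonic bases are shared with another annotated gene by 13 members, among them Axin2 and Fzd5. Wnt7b is the 1 called member among the 13.

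Its close relative Wnt7a (ENSMUSG00000030093) read 83.2, 63.1 and 96.8 in Control and 294, 239 and 305 in Sox9cKO, again without overlap. The mean rose 3.45-fold, from 81.0 ± 16.9 to 279 ± 35.2 (SD, n = 3), or 1.79 on the log2 scale (SE 0.21; limma, adjusted p 0.00713). Both calls held when any 1 sample was left out. Without both replicate 3 libraries, the pair with the lowest endothelial sums, Wnt7b kept its call (1.68, adjusted p 0.0390) and Wnt7a did not (1.86, adjusted p 0.0811). In background, Wnt7a and Wnt7b act on endothelial cells of the brain through Reck and Adgra2, which were measured here too. Reck read 24.4, 29.7 and 25.3 in Control and 32.8, 21.7 and 30.6 in Sox9cKO. Adgra2 read 97.5, 312 and 28.8 in Control and 294, 317 and 44.2 in Sox9cKO. Neither was called (limma, adjusted p 0.924 and 0.761), and Adgra2 was lowest in both replicate 3 libraries, as were the endothelial markers.

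Wnt10a (ENSMUSG00000026167), a ligand required for teeth and other ectodermal appendages, read 10.1, 14.8 and 12.7 in Control and 192, 151 and 58.9 in Sox9cKO. The groups were far apart, but the Sox9cKO libraries differed among themselves, with replicate 3 at the low end. The mean rose 10.7-fold, from 12.5 ± 2.38 to 134 ± 68.2 (SD, n = 3), or 3.17 on the log2 scale (SE 0.46; limma, adjusted p 0.0142). The call was lost without Control replicate 1 (adjusted p 0.0749), Control replicate 3 (0.0577) or Sox9cKO replicate 2 (0.0556), at log2 fold changes of 3.04, 3.19 and 3.00. Wnt6, its neighbour in the genome, held at most 6.91 normalized reads in any library and was not tested.

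**Figure D2:**
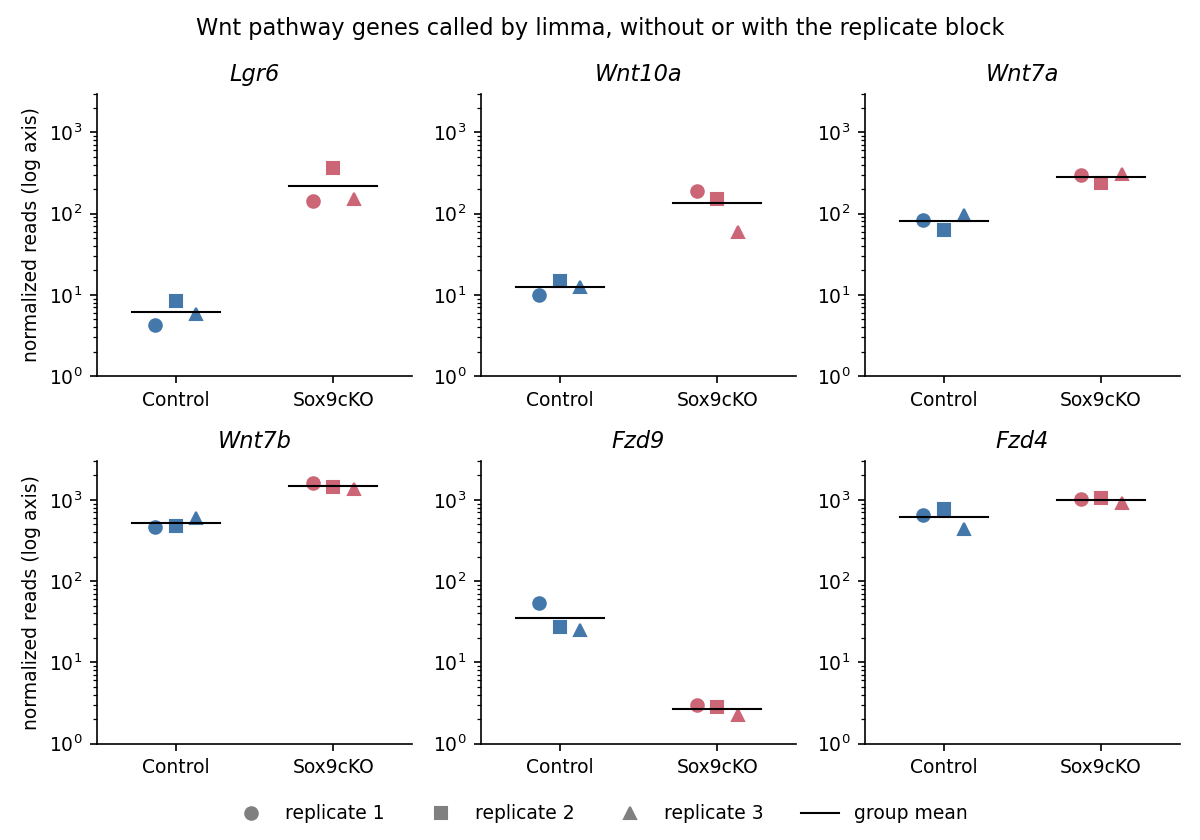
Normalized reads per library (log axis) of the 5 called members and of Fzd4, which was called with the replicate number as a block; symbols mark the replicate number and lines the group means. The Sox9cKO points of Lgr6, Wnt10a, Wnt7a and Wnt7b lie above all Control points and those of Fzd9 below them.

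A further pair of ligands had separate groups without a call. Wnt4, which acts in the kidney and the female reproductive tract, read 296, 318 and 288 in Control and 436, 413 and 470 in Sox9cKO (log2 fold change 0.55, 95% interval 0.25 to 0.84; limma, adjusted p 0.0754). Wnt9a, a relative of Wnt9b with roles in joints and blood stem cells, read 70.6, 52.9 and 64.5 in Control and 97.5, 123 and 166 in Sox9cKO (log2 fold change 1.0, 95% interval 0.41 to 1.60; limma, adjusted p 0.0954). DESeq2 on the recovered reads, which called 7.08% of all genes, called both (adjusted p 0.0351 and 0.0265), whereas edgeR called neither. Wnt5b, a mostly beta-catenin-independent ligand, pointed the other way, with 45.4, 18.6 and 84.1 in Control and 7.96, 20.8 and 11.3 in Sox9cKO. Its groups overlapped and it was not called (log2 fold change -1.67; limma, adjusted p 0.205). The remaining 5 tested ligands were Wnt2, Wnt2b, Wnt5a, Wnt9b and Wnt11, with log2 fold changes between -0.22 and 0.79 and adjusted p-values of at least 0.560 (limma). Wnt6, Wnt10b and Wnt16 were too rare to test.

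To compare ligands with each other, reads were divided by the exonic length of each gene. Summed over the 14 ligands, the level was 309, 350 and 312 normalized reads per kb in the Control samples and 748, 755 and 609 in the Sox9cKO samples. Every Sox9cKO total was above every Control total. Wnt7b had the highest level per kb of any ligand in each group, 106 ± 15.0 in Control and 301 ± 26.4 in Sox9cKO (SD, n = 3). It made up 30.8%, 28.1% and 39.4% of the summed ligand level in Control and 44.2%, 38.8% and 46.0% in Sox9cKO, with a slight overlap of the groups.

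Below Wnt7b the order of ligands differed between the groups. In Control, Wnt4 came next (71.7 ± 3.75 per kb), followed by Wnt2 (45.0 ± 36.6), Wnt7a (25.5 ± 5.34), Wnt9a (18.8 ± 2.70) and Wnt5b (18.6 ± 12.4). In Sox9cKO, Wnt4 (105 ± 6.82 per kb) was followed by Wnt7a (88.1 ± 11.1), Wnt2 (75.5 ± 61.1), Wnt10a (54.3 ± 27.6) and Wnt9a (38.7 ± 10.5). The spread of Wnt2 was wide enough in both groups that its place in the order is not settled. Wnt10a stood at 5.08 ± 0.966 per kb in Control, below Wnt5a, Wnt9b and Wnt11 as well. The share of Wnt4 in the summed level was 22.8%, 21.7% and 22.0% in Control and 13.9%, 13.0% and 18.4% in Sox9cKO, although its own reads were higher in Sox9cKO. These shares depend on the length used for each gene and are given without a test.

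**Figure D3:**
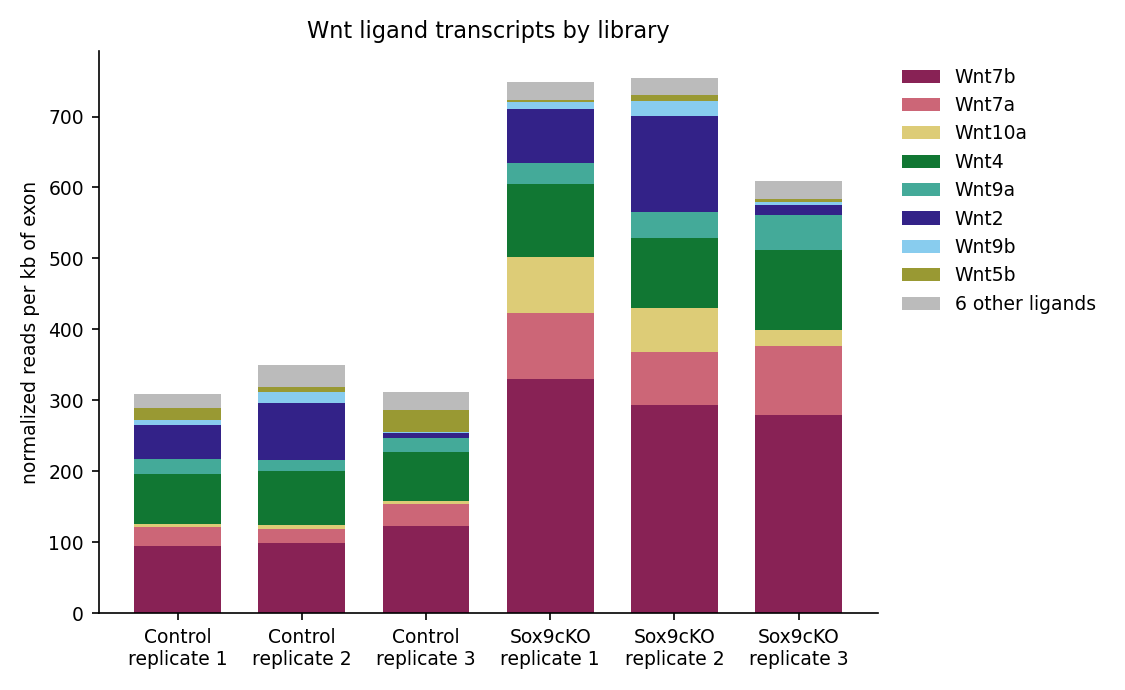
Summed level of the 14 Wnt ligands in each library, as normalized reads per kb of exon (bars start at 0), split by ligand. The Sox9cKO bars reach 609 to 755 and the Control bars 309 to 350, and the Wnt7b, Wnt7a and Wnt10a segments are taller in each Sox9cKO bar.

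R-spondins and their receptors included the largest change of all members. Lgr6 (ENSMUSG00000042793), which marks stem cells in skin and is barely expressed in most adult tissues, read 4.20, 8.35 and 5.76 in Control and 144, 369 and 152 in Sox9cKO. The Control values rest on 5, 9 and 5 reads, and the Sox9cKO values on 145, 390 and 134 reads. Every Sox9cKO library was far above every Control library. The ratio of the pooled reads per size factor was 37.5, with a 95% interval of 23.8 to 62.6 that covers counting error only. limma put the difference at 4.87 on the log2 scale (SE 0.44, adjusted p 0.00360). The call held when any 1 sample was left out, at 4.43 to 5.10. Without both replicate 3 libraries the difference was 5.05 and the adjusted p 0.0629.

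Lgr4, the broadly expressed receptor of this family, read 1265, 1142 and 1426 in Control and 1015, 975 and 1182 in Sox9cKO, with overlapping groups. It was not called (log2 fold change -0.27, 95% interval -0.59 to 0.044; limma, adjusted p 0.353). Per kb of exon Lgr4 stayed the more abundant receptor, at 217 ± 24.3 in Control and 180 ± 18.6 in Sox9cKO, against 0.891 ± 0.306 and 32.3 ± 18.6 for Lgr6. Lgr5, the intestinal stem cell marker and a beta-catenin target, read 10.1, 8.35 and 4.61 in Control and 7.96, 10.4 and 9.06 in Sox9cKO and fell below the minimum for testing. The ligand Rspo3 read 49.6, 117 and 9.22 in Control and 70.6, 164 and 32.8 in Sox9cKO and was not called (limma, adjusted p 0.675). Rspo1 held 1.68, 3.71 and 4.61 in Control and 9.95, 8.51 and 10.2 in Sox9cKO. Its groups did not overlap, but it was too rare for the test, and in a fit without the minimum its adjusted p was 0.186 (limma).

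Promoter sequences of the called members are shown because Sox9 and the Tcf factors both bind DNA through related high-mobility-group domains. Of the 56 members 38 had a promoter in the RefSeq table for GRCm38.p6, among them the called genes Lgr6, Wnt7a and Fzd9. Each sequence gives the 250 bases before the annotated start, 5′ to 3′ on the strand of the gene, which is the minus strand for all 3. Capitals mark a match to AACAAT, a core of SOX binding sites.
Lgr6 (chr1:135105277-135105526, GRCm38.p6): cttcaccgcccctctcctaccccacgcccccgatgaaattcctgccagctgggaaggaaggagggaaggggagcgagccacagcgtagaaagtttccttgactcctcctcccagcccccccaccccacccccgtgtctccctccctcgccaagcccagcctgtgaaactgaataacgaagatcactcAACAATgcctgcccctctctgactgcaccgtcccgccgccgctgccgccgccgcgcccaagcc
Wnt7a (chr6:91411354-91411603, GRCm38.p6): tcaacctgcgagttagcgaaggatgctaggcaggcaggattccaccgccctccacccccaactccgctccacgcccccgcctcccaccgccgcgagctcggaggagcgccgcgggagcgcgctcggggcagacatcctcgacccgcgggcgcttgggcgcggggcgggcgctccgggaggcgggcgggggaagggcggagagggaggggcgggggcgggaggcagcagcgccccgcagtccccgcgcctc
Fzd9 (chr5:135251048-135251297, GRCm38.p6): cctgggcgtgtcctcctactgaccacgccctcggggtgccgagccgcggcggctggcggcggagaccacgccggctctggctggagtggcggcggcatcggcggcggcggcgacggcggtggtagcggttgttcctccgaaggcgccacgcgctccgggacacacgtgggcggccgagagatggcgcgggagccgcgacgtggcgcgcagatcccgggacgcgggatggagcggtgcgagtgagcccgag
The motifs searched on both strands were the SOX cores AACAAT and ACAATGG, the Tcf/Lef cores CTTTGAA and CTTTGAT, and CTTTGTT, which both families share. AACAAT and ACAATGG overlap in part. The Lgr6 window held AACAAT once, starting 63 bases before the start, and the windows of Wnt7a and Fzd9 held none of the 5 motifs. AACAAT was present in 9.42% of all 32817 windows of this length in the table and in 3 of the 47 windows of members, some of which have several. The other motifs occurred in 3.02% (ACAATGG), 4.46% (CTTTGAA), 3.21% (CTTTGAT) and 5.03% (CTTTGTT) of all windows. These matches describe the letters in these windows only.

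Of the 9 Frizzled receptors tested, Fzd9 was the one called. Fzd9 (ENSMUSG00000049551), a receptor gene known from brain and bone, read 53.8, 26.9 and 25.3 in Control and 2.98, 2.84 and 2.26 in Sox9cKO. The Sox9cKO values rest on 3, 3 and 2 reads, so the ratio of pooled reads per size factor, 13.5-fold lower, has a 95% interval of 6.63 to 32.0 for counting error alone. On the log2 scale Fzd9 fell by 3.22 (SE 0.43; limma, adjusted p 0.0108). Without Control replicate 1, which held the most Fzd9, the adjusted p was 0.0630 at a log2 fold change of -2.88, and without both replicate 3 libraries it was 0.110 at -3.32. Fzd9 was rare in both groups, at 15.4 ± 6.97 per kb in Control and 1.18 ± 0.166 in Sox9cKO.

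Fzd5 was the most abundant Frizzled gene, at 324 ± 76.8 normalized reads per kb in Control and 367 ± 44.8 in Sox9cKO. It read 2708, 1661 and 2343 in Control and 2524, 2232 and 2852 in Sox9cKO and was not called (log2 fold change 0.20, 95% interval -0.26 to 0.66; limma, adjusted p 0.652). Fzd4, a receptor of blood vessels that also binds Norrin, came next in Frizzled levels per kb (92.0 ± 25.3 and 149 ± 11.8). It read 645, 773 and 437 in Control and 1028, 1062 and 911 in Sox9cKO, so the groups did not overlap. The log2 fold change was 0.73 (limma, adjusted p 0.133), and the replicate block, under which 8.05% of all genes were called, brought its adjusted p to 0.0284. The endothelial marker sum was higher in Sox9cKO in 3 of 3 replicate pairs too, and its part in the Fzd4 difference was not tested.

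Below these, Fzd3, Fzd7, Fzd1, Fzd8 and Fzd2 had negative and Fzd6 positive log2 fold changes, from -1.21 to 0.39, with no call (limma, adjusted p at least 0.290). Of them Fzd2, the rarest, had groups that did not overlap (17.7, 10.2 and 17.3 in Control and 8.95, 8.51 and 2.26 in Sox9cKO). Fzd10, below the minimum for testing, differed in the opposite direction. It read 1.68, 4.64 and 1.15 in Control and 11.9, 12.3 and 19.2 in Sox9cKO, a pooled ratio of 5.59 (95% interval 2.59 to 13.8, counting error only). Without the minimum its adjusted p was 0.0699 (limma).

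For the co-receptors no difference beyond the spread was detected. Lrp6 read 5790, 5580 and 6196 in Control and 4824, 6011 and 5879 in Sox9cKO (log2 fold change -0.077, 95% interval -0.37 to 0.21). Lrp5 read 2708, 2869 and 2092 in Control and 2475, 2757 and 1665 in Sox9cKO (log2 fold change -0.17, 95% interval -0.68 to 0.33). Neither was called (limma, adjusted p 0.801 and 0.736). The Wnt5a receptor Ror1 read 2006, 1066 and 1190 in Control and 884, 839 and 1074 in Sox9cKO, with Control replicate 1 standing above the rest. It was lower in 3 of 3 replicate pairs but not called (log2 fold change -0.56, 95% interval -1.13 to 0.014; limma, adjusted p 0.294). Ror2 read 19.3, 1.86 and 12.7 in Control and 6.96, 1.89 and 0 in Sox9cKO and was too rare to test. Its Control libraries ranged widely and overlapped with Sox9cKO.

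Secreted antagonists, which bind Wnt proteins or Lrp co-receptors outside the cell, were mostly rare. Of 9 members 2 were tested. Dkk3, a divergent Dickkopf that does not act as the classical Lrp blockers do, read 36.1, 64.0 and 32.3 in Control and 67.7, 119 and 31.7 in Sox9cKO. Sfrp1, a soluble Frizzled-like protein, read 22.7, 19.5 and 18.4 in Control and 55.7, 23.6 and 31.7 in Sox9cKO, just without overlap. Neither was called (limma, adjusted p 0.610 and 0.344).

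Sfrp5, another protein of the Sfrp1 subgroup, had a mean below the minimum and reached it in the Control group alone. It read 10.9, 24.1 and 12.7 in Control and 0.995, 1.89 and 0 in Sox9cKO, so the groups were separate. The pooled counts were 50 reads in Control and 3 in Sox9cKO, a ratio of 15.7 with a 95% interval of 5.06 to 78.5 for counting error alone. In the fit without a minimum Sfrp5 was the one untested member that was called (log2 fold change -3.16; limma, adjusted p 0.0316). Sfrp2, Sfrp4, Dkk1, Dkk2, Wif1 and Notum, the enzyme that strips the lipid from Wnt proteins, stayed at or below 20.7 normalized reads in every library.

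Among the 13 tested genes of ligases, Porcn, Dishevelled, Axin, Nkd and Tcf/Lef proteins, none was called with limma, edgeR or DESeq2, and none had an unadjusted p under 0.05. Of all genes tested, limma called 2.97%, edgeR 2.86% and DESeq2 7.08%. At those shares 13 genes would hold few or no calls. The ligase gene Znrf3 read 720, 561 and 707 in Control and 593, 542 and 676 in Sox9cKO. Its partner Rnf43 read 171, 161 and 156 in Control and 187, 112 and 145 in Sox9cKO. The log2 fold changes were -0.13 (95% interval -0.49 to 0.22) and -0.16 (-0.67 to 0.34). Porcn, which acylates every Wnt ligand, read 38.7, 31.6 and 27.7 in Control and 49.7, 32.1 and 35.1 in Sox9cKO, and its groups overlapped. The carrier Wls read 881, 778 and 733 in Control and 1220, 608 and 618 in Sox9cKO, with Sox9cKO replicate 1 above the other libraries. Adjusted p-values of these 4 genes were at least 0.711 (limma), and no difference was detected in these genes of Wnt release and receptor turnover.

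The Dishevelled genes lay close together in both groups. Dvl1 read 790, 881 and 953 in Control and 1043, 1060 and 925 in Sox9cKO. Dvl3 read 870, 743 and 929 in Control and 923, 926 and 1032 in Sox9cKO. Dvl2 ranged from 435 to 625 over all libraries. Their log2 fold changes lay between -0.043 and 0.21, with adjusted p-values of at least 0.441 (limma). Axin1, the scaffold of the destruction complex, read 1410, 1213 and 1619 in Control and 1484, 1480 and 1481 in Sox9cKO (log2 fold change 0.077, 95% interval -0.23 to 0.38). Its Sox9cKO libraries were nearly equal and lay within the Control range.

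Among the Tcf/Lef factors, Tcf7l2 read 1160, 941 and 855 in Control and 917, 611 and 694 in Sox9cKO. It was lower in 3 of 3 replicate pairs, but the groups overlapped and it was not called (log2 fold change -0.42, 95% interval -0.86 to 0.024; limma, adjusted p 0.309). Tcf7l1, which often acts as a repressor, read 517, 547 and 402 in Control and 674, 566 and 523 in Sox9cKO and was not called either (log2 fold change 0.27; limma, adjusted p 0.462). Tcf7 was rarer (41.2 to 73.7 over all libraries) and not called (limma, adjusted p 0.613). Lef1 held 5.04, 2.78 and 6.91 in Control and 1 read in each Sox9cKO library. Per kb, Tcf7l1 and Tcf7l2 had similar levels in Control (125 ± 19.5 and 112 ± 17.9), and in Sox9cKO the level was 150 ± 19.8 for Tcf7l1 and 84.4 ± 18.0 for Tcf7l2.

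Several members are themselves feedback targets of beta-catenin. Axin2, the most widely used reporter of the pathway, read 31.1, 47.3 and 51.8 in Control and 63.7, 52.9 and 60.0 in Sox9cKO. The groups were separate by a narrow margin, and the difference was not called (log2 fold change 0.46, 95% interval -0.17 to 1.09; limma, adjusted p 0.432). Nkd1, another feedback inhibitor, is described with the endothelial pattern. Lgr5, Notum and Lef1 were too rare to test, and Rnf43, Znrf3 and Tcf7 were not called. None of the tested feedback targets among the members was called, against 2.97% of all genes tested. So few genes would hold no call at that share, and their lack of calls does not show a lack of change. The interval of Axin2 allows an increase of up to 1.09 on the log2 scale.

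Outside the members, 108 further genes of the pathway were tested from lists of their roles, and 6 of them were called, 3 higher and 3 lower. These lists were chosen with earlier results of these data known, so counts over them are descriptive only. Of all genes, limma called 2.97%, limma with the replicate block 8.05% and DESeq2 7.08%. The share of all genes with an unadjusted p under 0.05 is not given here. The median log2 fold change of the 108 genes was 0.063. Of 31 tested genes of the destruction complex and its nuclear partners, Tle4 alone was called, lower, while 5 had an unadjusted p under 0.05. The replicate block added the kinase gene Csnk1g3, higher (0.59 on the log2 scale; limma, adjusted p 0.0427). Tle4, a Groucho co-repressor of Tcf factors, read 1861, 1287 and 1586 in Control and 827, 874 and 800 in Sox9cKO (log2 fold change -0.90; limma, adjusted p 0.0268). Ctnnb1, which encodes beta-catenin, read 11454, 9672 and 10633 in Control and 13621, 10455 and 12345 in Sox9cKO and was not called (log2 fold change 0.19; limma, adjusted p 0.527). Among 16 tested extracellular modulators, Sulf2 alone was called, higher, while 6 had an unadjusted p under 0.05 and DESeq2 called 4. The replicate block also called 4, adding the glypican genes Gpc3 (1.23 on the log2 scale; limma, adjusted p 0.0282) and Gpc6 (1.26; 0.0314) and the decoy receptor gene Bambi (-1.04; 0.0140). Sulf2, which removes 6-O-sulfates from heparan sulfate, read 30.3, 83.5 and 25.3 in Control and 234, 166 and 290 in Sox9cKO (log2 fold change 2.45; limma, adjusted p 0.0378). Among 30 tested genes of planar polarity and other non-canonical signalling, Ankrd6 alone was called, higher, while 5 had an unadjusted p under 0.05 and DESeq2 called 3. The replicate block also called 3, adding the cadherin genes Celsr1 (0.69 on the log2 scale; limma, adjusted p 0.0129) and Celsr3 (-1.41; 0.0482). Ankrd6, also known as Diversin, read 115, 94.7 and 89.9 in Control and 205, 301 and 237 in Sox9cKO (log2 fold change 1.29; limma, adjusted p 0.0204). Tle4, Sulf2 and Ankrd6 all had separate groups. When 1 sample was left out, Tle4 and Sulf2 kept their calls only without Control replicate 2 (adjusted p 0.0182 and 0.00875) and Ankrd6 only without Sox9cKO replicate 1 (0.0318). Their adjusted p otherwise reached 0.101, 0.155 and 0.0832, and edgeR did not call Sulf2 (0.0594).

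Of 23 tested genes listed as beta-catenin targets in various tissues, 3 were called, in both directions. In this list 15 had an unadjusted p under 0.05, a share that is not given here for all genes. DESeq2 called 7 of the list, against 7.08% of all genes. The replicate block called 8, 4 higher and 4 lower, against 8.05% of all genes. Tnfrsf19, a receptor of the tumour necrosis factor family, read 471, 335 and 325 in Control and 45.8, 62.4 and 50.9 in Sox9cKO, so every Sox9cKO library was far below every Control library (log2 fold change -2.80; limma, adjusted p 0.00246). Cdkn2b, a cyclin-dependent kinase inhibitor gene better known as a target of transforming growth factor beta, read 10.9, 32.5 and 19.6 in Control and 254, 212 and 165 in Sox9cKO, a rise of 3.37 on the log2 scale (limma, adjusted p 0.00687). Tgfb3, which encodes a ligand of that other pathway, read 450, 313 and 365 in Control and 172, 163 and 186 in Sox9cKO and fell by 1.09 on the log2 scale (limma, adjusted p 0.0207). The calls of Tnfrsf19 and Cdkn2b held when any 1 sample was left out, whereas Tgfb3 kept its call only without Control replicate 2 (adjusted p 0.0245, against up to 0.0878 otherwise). The genes added by the block were Cd44 (0.68 on the log2 scale; limma, adjusted p 0.0326), Mmp7 (2.44; 0.00416), Ptgs2 (2.56; 0.0226), Id2 (-0.67; 0.0188) and Bambi, which this list shares. The list also holds Myc (-0.39), Ccnd1 (0.065) and Apcdd1 (-1.04), none of them called. Of 10 tested hepatocyte targets of beta-catenin, including Glul (log2 fold change -0.069), none was called with limma or with edgeR, 1 had an unadjusted p under 0.05 and 1 was called with DESeq2. The replicate block called 2 of them, Oat and Slc1a4, 1 higher and 1 lower (limma, adjusted p 0.0144 and 0.0337). With the replicate block 18 of the 108 genes were called, against 8.05% of all genes. Because the lists were chosen with earlier results of these data known, their counts beside the shares of all genes are no test of the pathway.

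**Figure D4:**
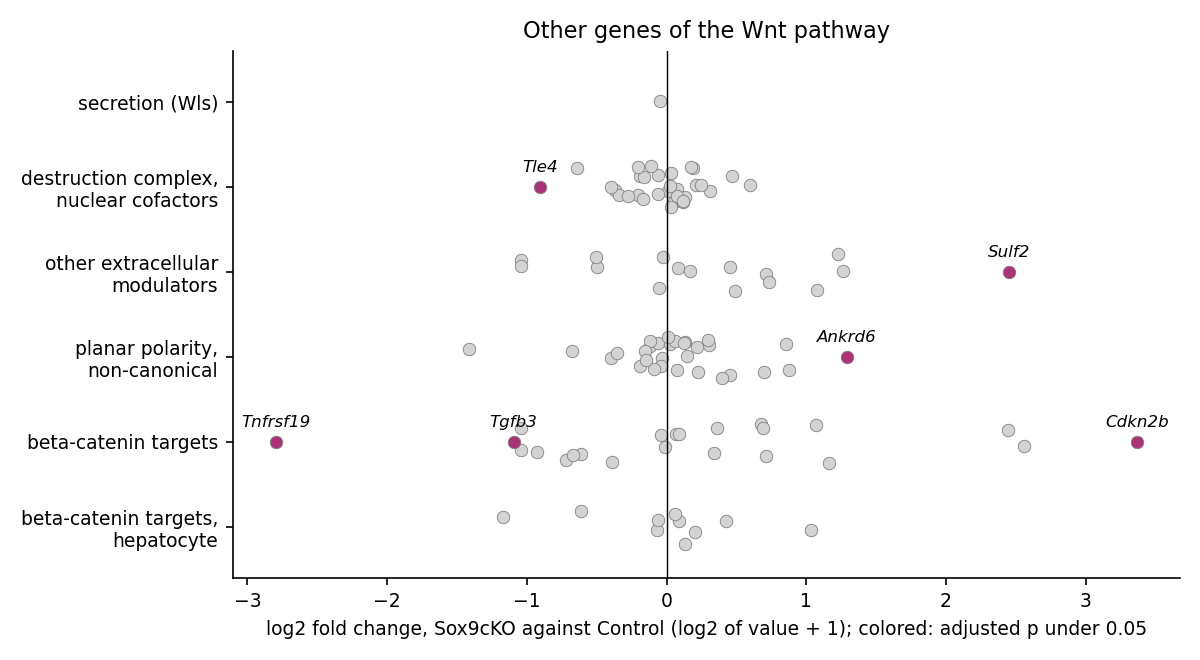
Log2 fold change (x axis, Sox9cKO against Control) of tested pathway genes outside the members, 1 point a gene in each list that holds it; colored points had an adjusted p under 0.05 with limma. The 6 called genes are named, 3 on either side of 0.

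A set of members varied with the replicate number more than with the genotype. Wnt2 read 108, 181 and 16.1 in Control and 172, 307 and 31.7 in Sox9cKO. Wnt9b read 33.6, 66.8 and 6.91 in Control and 43.8, 93.6 and 18.1 in Sox9cKO. Nkd1 read 78.2, 202 and 24.2 in Control and 179, 221 and 27.2 in Sox9cKO. In these 3 genes and in Rspo3, both replicate 3 libraries were the lowest and both replicate 2 libraries the highest of their group. The same order held for the endothelial marker sum, and 13 of its 14 markers were lowest in both replicate 3 libraries. Wnt2, Wnt9b and Rspo3 are the Wnt and R-spondin genes known from liver endothelium.

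In 10 of the 41 tested members both replicate 3 libraries were below the other 4, against 11.2% of all tested genes. In Wnt2, Nkd1 and Nkd2 each of the other 4 libraries held at least 2 times the reads of both replicate 3 libraries, against 1.09% of all tested genes. These members were singled out after their values were seen. None of them was called, and the standard error of the log2 fold change was 1.07 for Wnt2, 0.93 for Rspo3, 0.97 for Nkd1 and 0.87 for Wnt9b, against 0.14 for Wnt7b. Blocking on the replicate number gave Wnt2 a standard error of 0.18 and an adjusted p of 0.0504 at the log2 fold change of 0.79 (limma). In each of these 4 genes the Sox9cKO library was above the Control library in 3 of 3 pairs, as was the endothelial sum. The part of endothelial RNA in these values was not tested.

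**Figure D5:**
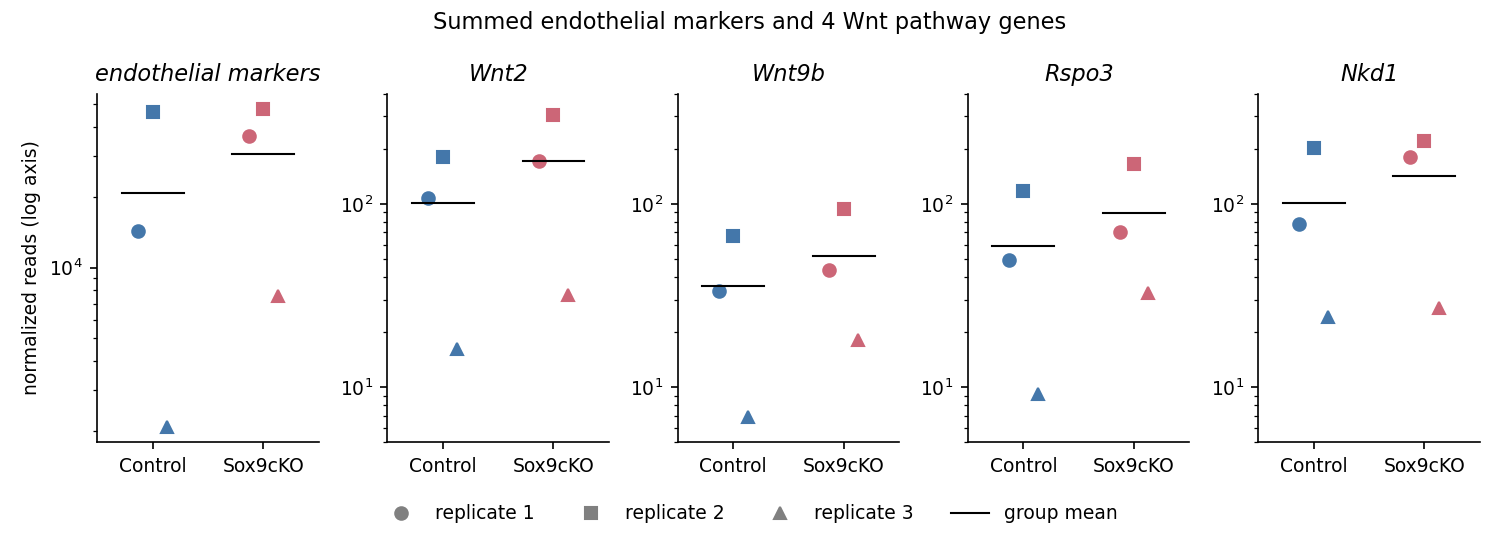
Normalized reads per library (log axis) of the summed 14 endothelial markers and of Wnt2, Wnt9b, Rspo3 and Nkd1; symbols mark the replicate number and lines the group means. Replicate 3 (triangles) is lowest in each group and panel, and replicate 2 (squares) highest.

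The called ligands and Lgr6 followed that order in part at most. In none of them were both replicate 3 libraries the lowest of their group. Lgr6 was highest in replicate 2 of both groups, and Wnt10a in replicate 2 of Control only. Wnt10a and Wnt7b were lowest in replicate 3 of Sox9cKO, but not of Control. Wnt7b, Wnt7a and Lgr6 were above every Control library in all 3 Sox9cKO libraries, including replicate 3. In replicate 3 the endothelial sum was 7575 in Sox9cKO and 2091 in Control, so it was higher in Sox9cKO within that pair too. In Control replicates 1 and 2 it was 14418 and 46074. The hepatocyte marker sum was higher in every Sox9cKO library than in any Control library. So was the mesothelial marker Msln, which also occurs in epithelia (368, 273 and 364 in Control and 1740, 827 and 1657 in Sox9cKO). Another mesothelial marker, Upk3b, read 80.7, 65.0 and 74.9 in Control and 44.8, 35.9 and 43.0 in Sox9cKO. The summed 6 mesothelial markers ranged from 954 to 983 in Control and from 1158 to 2173 in Sox9cKO, with Msln the one called of 6. The median log2 fold change of this list was -0.15, against 2.01 for Msln. Summed leukocyte and erythroid markers ranged from 1094 to 1296 and from 1553 to 1855, with Csf1r the one called of 9 tested, higher in Sox9cKO. Every other tested marker of this list had a negative log2 fold change, the list's median was -0.68, and under the replicate block Lyz2 was called lower (limma, adjusted p 0.0417). The summed mesenchymal markers ranged from 3313 to 3967 in Control and from 3616 to 6503 in Sox9cKO. Of 14 tested none was called with limma, edgeR or DESeq2, and 2 had an unadjusted p under 0.05. No marker in these lists was at 0 in all libraries. The part of these cell types in the values of the called members was not tested.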

How the data were processed

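The deposited signal of each gene equals its reads scaled by 1 size factor for each library, as the authors' values show: dividing by the smallest step gave whole reads for 100% of values (tolerance 0.001), and the factors equalled DESeq2's median-of-ratios factors. Per the submitters' processing notes, DESeq2 1.36.0 and GRCm39 were used, and per the labels' protocols libraries were stranded total RNA with molecular identifiers. The aligner, annotation and use of strand and identifiers are not given in the sources used here. The lowest gene total was 10 reads.

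Members were matched by symbol. The members and gene lists were chosen with earlier results of these data known. Values were tested as log2(value + 1) with limma 3.58.1 (R 4.3.3; intensity trend, two-sided, Benjamini-Hochberg over all genes with a mean of at least 10, threshold 0.05). The pseudocount understates changes of rare genes. Values per sample are given for members called with or without the replicate block and for the 2 members with the most reads in each role, as fixed in a rule; called genes of other lists are named, at most 5 a list. Other members were added after their values were seen. Levels per kb used the summed exonic length in GENCODE M21 (GRCm38), known for all 56 members. Alternatives used edgeR 4.0.16 and DESeq2 1.42.0 on recovered reads, pseudocounts of 0.1 and 5, no minimum or a minimum of 50, TMM or quantile scaling, the replicate block, and leaving out each sample. A fit of replicates 1 and 2 only was added after seeing the data. Counting intervals are exact binomial ones.

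Replicate numbers come from the sample titles. Same-numbered samples deviated together from their group means over 17153 genes (correlations 0.21, 0.47 and 0.54), so the block is given beside members and pathway genes whose call it changes. Libraries of 1 group all differed by more than counting noise (17.9 to 39.5 times that expected of 1 library). A simulation held 200 changed genes of 16839 tested. In it limma recovered 84.8% of those changed by 2 and 18.6% of those changed by 1 on the log2 scale. Of its calls 3.3% were false. The simulated reads had no shared deviation of same-numbered samples, and their dispersion depended on the level of a gene alone. These rates therefore need not hold for the real libraries.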

Additional observations from a re-analysis of the deposited data

How the results depend on the processing

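Sox9 kept its direction throughout and its call in 16 of 17 alternatives, with log2 fold changes of -0.93 to -0.88 over fits leaving out 1 sample. Wnt7b kept its call in all 17 alternatives, and Lgr6 and Wnt7a in the 16 other than the fit of replicates 1 and 2. Wnt10a lost its call in 3 fits leaving out 1 sample and Fzd9 in 1, and at a minimum mean of 50 Fzd9 has no value. Members called numbered 5 in the main analysis and 3 to 5 when 1 sample was left out. All called genes numbered 510, against 1381 with the replicate block, 1160 with edgeR and the replicate block, 1214 with DESeq2, and 199 to 387 when 1 sample was left out. Other pathway genes numbered 6, against 18 with the replicate block, 17 with edgeR and the replicate block, 16 with DESeq2, and 2 to 7 when 1 sample was left out. With replicates 1 and 2 only, chosen after seeing the data, 52 genes, 2 members and 1 other pathway gene were called, and Sox9 stood at -0.91 (limma, adjusted p 0.0970). That fit has 4 samples, and its cause beyond the smaller number was not tested. The pairing changed the call of no other member than Fzd4. The causes of the other differences were not tested.

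Among the 41 tested members the sign changed in 11, all uncalled, when 1 sample was left out. Axin1 had a log2 fold change of -0.011 under quantile normalization. Ranges over those fits were -0.028 to 0.18 for Axin1, -0.14 to 0.023 for Lrp6, -0.32 to 0.044 for Lrp5, -0.35 to 0.017 for Rnf43, -0.067 to 1.70 for Rspo3, -0.29 to 1.43 for Nkd1, -0.22 to 1.73 for Wnt2, -0.16 to 1.39 for Wnt9b, -0.62 to 0.46 for Nkd2, -0.21 to 0.047 for Dvl2 and -0.44 to 0.19 for Wnt2b. Changes of 1 on the log2 scale were recovered in 18.6% of simulated cases, without the replicate structure of the real libraries. Sfrp5, Fzd10 and the other rare members are limited by read number.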
